A study of Mus musculus with 6 samples.

Results

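Oligodendrocyte precursors were followed in mouse hippocampus through 9 genes that mark the oligodendrocyte lineage from the dividing precursor to the newly formed oligodendrocyte. They are Pdgfra, Cspg4, Olig1, Olig2, Sox10, Enpp6, Bcas1, Tnr and Neu4, chosen by symbol, and all 9 were found among the 15388 genes of the deposited table. All mice were Cx3cr1-Cre/Ert2+; NuTRAP+, were treated with tamoxifen to induce Cre, and per the study's methods were about 3 months old, with males and females used. NuTRAP adds an EGFP tag to the ribosomes of recombined cells, and translating ribosome affinity purification (TRAP) pulls those ribosomes down with an antibody to GFP. The Cx3cr1 promoter drives Cre, so the tag is placed in microglia and in other Cx3cr1+ macrophages and in no oligodendrocyte lineage cell by design. The hippocampus of each of 3 animals (numbers 201, 207 and 208) gave 1 Input library, the RNA of the whole cleared homogenate, and 1 Positive library, the RNA bound to tagged ribosomes. The comparison asks how much RNA of the precursor lineage was left in the microglial fraction, relative to the other genes.

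Oligodendrocyte precursors divide throughout adult life and are spread through grey and white matter. They are held in the dividing state in part by platelet-derived growth factor acting on its receptor, and they turn off receptor and proteoglycan genes as they commit, form premyelinating oligodendrocytes and make myelin. The transcription factors of the lineage stay on for longer, several of them into mature oligodendrocytes, while a small set of genes is used mainly in passing, during commitment.

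Reads counted over the 15388 genes of the deposited table summed to 14879734 to 16488460 per library in Input and 15790210 to 17757918 in Positive. Reads were divided by a size factor per library, and the result is called scaled reads. All 8 microglia markers rose in the Positive fraction, with a median log2 fold change of 4.68 and a range of 4.31 to 4.80, among them Cx3cr1 and Csf1r, the receptor for the main microglial survival signals. Of 15343 genes tested, 7051 differed between the fractions (edgeR quasi-likelihood test, adjusted p under 0.05), with 3377 lower and 3674 higher in Positive. Lower genes made up 47.9% of these calls, and 58.4% when libraries were scaled by their total count. The median log2 fold change of all genes tested was -0.01.

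The 250 bases ahead of the start of transcription are shown for 4 members of different roles, the precursor receptor Pdgfra, the lineage factor Olig2, the commitment gene Enpp6 and the matrix gene Tnr. They are from RefSeq (GRCm38.p6, the mm10 build of the files), 5′ to 3′ and all on the plus strand. Capitals mark the E-box CANNTG, the letters bound by basic helix-loop-helix factors such as OLIG2, and the SOX core ACAAT or its reverse complement ATTGT, both searched on both strands.
Pdgfra, chr5:75152001-75152250: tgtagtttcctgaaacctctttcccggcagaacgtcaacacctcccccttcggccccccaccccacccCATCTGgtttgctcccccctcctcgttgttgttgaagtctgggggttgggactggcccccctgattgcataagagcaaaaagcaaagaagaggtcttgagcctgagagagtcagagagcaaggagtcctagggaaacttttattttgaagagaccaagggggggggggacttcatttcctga
Olig2, chr16:91225300-91225549: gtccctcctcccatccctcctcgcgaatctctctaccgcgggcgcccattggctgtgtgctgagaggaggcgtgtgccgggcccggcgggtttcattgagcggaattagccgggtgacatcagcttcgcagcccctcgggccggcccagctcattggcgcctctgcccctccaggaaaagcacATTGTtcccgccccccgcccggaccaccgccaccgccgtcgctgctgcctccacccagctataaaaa
Enpp6, chr8:46986637-46986886: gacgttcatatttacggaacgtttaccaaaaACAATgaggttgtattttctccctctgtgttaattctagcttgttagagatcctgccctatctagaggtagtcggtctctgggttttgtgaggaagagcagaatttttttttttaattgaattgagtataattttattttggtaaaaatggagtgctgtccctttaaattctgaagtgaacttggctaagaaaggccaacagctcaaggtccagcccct
Tnr, chr1:159523519-159523768: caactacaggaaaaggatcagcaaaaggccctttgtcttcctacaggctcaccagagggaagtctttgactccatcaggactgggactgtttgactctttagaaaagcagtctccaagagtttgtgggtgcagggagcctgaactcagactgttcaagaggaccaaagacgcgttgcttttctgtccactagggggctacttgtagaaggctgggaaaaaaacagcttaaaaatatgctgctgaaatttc
The Pdgfra window held 1 E-box and 0 SOX cores. The Olig2 and Enpp6 windows each held 0 E-boxes and 1 SOX core, and the Tnr window held neither. Among 32851 promoters of this length, 66.2% held an E-box and 27.7% a SOX core, so these matches are a description of the letters and nothing more. Base composition differed widely, with a GC content of 66.8% and 22 CpG dinucleotides ahead of Olig2, 54.4% and 4 ahead of Pdgfra, 46.8% and 2 ahead of Tnr, and 38.4% and 4 ahead of Enpp6, against medians of 52.4% and 6 over all promoters.

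RNA of 8 of the 9 members fell in the Positive fraction, and 0 rose. Enpp6, among these 8, passed the minimum of over 20 scaled reads only through its Input libraries. Of all genes tested, 22% fell and 23.9% rose, 46% in either direction. In the same 8 members all 3 Positive libraries lay below all 3 Input libraries, which was so for 27.6% of all genes tested, while 28.9% had all Positive libraries above all Input libraries. Each of these 8 fell below 50% of its Input level, as 4.47% of all genes tested did. The 8 genes together summed to 5485 to 5947 scaled reads in Input and 1290 to 1908 in Positive, a mean of 28.2% of Input. Both fractions came from the same homogenate of each animal. A lower value is therefore a smaller share of that RNA in the Positive fraction, relative to the other genes, and counts no cells. The remaining member, Tnr, had nearly the same level in both fractions.

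**Figure D1:**
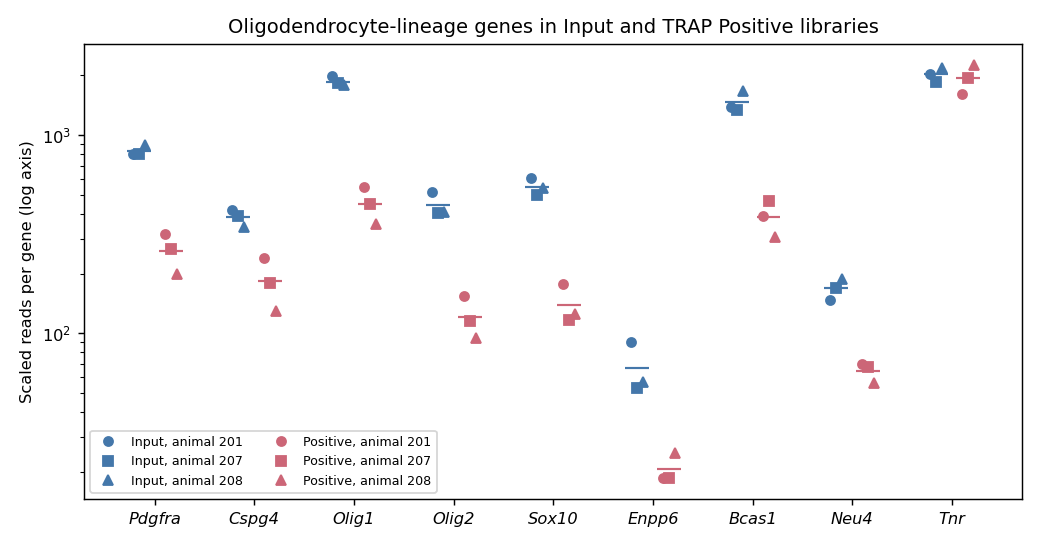
Scaled reads (log axis) of the 9 genes in each of the 6 libraries, Input in blue and Positive in red, with a marker shape for each animal and a line at the mean of each fraction. In 8 genes the 3 Positive points sit below all 3 Input points, and in Tnr the fractions overlap.

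Pdgfra, the receptor tyrosine kinase for platelet-derived growth factor and the usual surface label of the dividing precursor (chr5:75152292-75198215, plus strand), had 803, 802 and 889 scaled reads in Input of animals 201, 207 and 208. Its Positive libraries had 315, 267 and 199. The groups did not overlap, and the library of animal 208 was the highest in Input and the lowest in Positive. The log2 fold change was -1.67 ± 0.14 (SE), or 31.4% of Input with a 95% interval of 25.4% to 38.8% (edgeR, adjusted p = 7.9e-07).

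Cspg4 encodes the NG2 proteoglycan, which sits on the same precursors and also on pericytes of blood vessels (chr9:56865033-56899870, plus strand). Its scaled reads were 421, 390 and 345 in Input and 239, 180 and 129 in Positive, again with no overlap. The log2 fold change was -1.08 ± 0.19 (SE), or 47.3% of Input with a 95% interval of 35.8% to 62.6% (edgeR, adjusted p = 0.00045). Of the 8 genes that fell, Cspg4 kept the largest share of its Input level. Its log2 ratio of Positive over Input was higher than that of Pdgfra in all 3 animals, by 0.47 to 0.74.

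The 3 transcription factors of the lineage had 24.2% to 27.3% of their Input levels in the Positive fraction. Olig1, a basic helix-loop-helix factor involved in maturation and myelin repair (chr16:91269772-91271933, plus strand), had 1982, 1823 and 1782 scaled reads in Input and 545, 450 and 355 in Positive. Its log2 fold change of -2.05 ± 0.13 (SE) was the lowest of the 9 members (edgeR, adjusted p = 3.8e-08). Olig2, its relative, is needed to specify the lineage and lies 41095 bases away on the same strand (chr16:91225550-91228677). Olig2 had 518, 405 and 409 scaled reads in Input and 153, 115 and 94.5 in Positive, a log2 fold change of -1.87 ± 0.18 (SE, edgeR, adjusted p = 2.3e-06). Sox10, an HMG-box factor that switches on myelin genes and stays on in mature oligodendrocytes (chr15:79154913-79164490, minus strand), had 605, 499 and 539 in Input and 177, 116 and 125 in Positive. Its log2 fold change was -1.98 ± 0.16 (SE, edgeR, adjusted p = 5.3e-07). None of the 3 factors overlapped between the fractions, and in each of them animal 201 had the highest level in both.

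The genes used around commitment fell as well. Bcas1, which marks newly formed oligodendrocytes that are starting to myelinate (chr2:170346991-170427845, minus strand), had 1380, 1343 and 1676 scaled reads in Input and 391, 464 and 306 in Positive. Its log2 fold change was -1.92 ± 0.14 (SE, edgeR, adjusted p = 1.6e-07). Neu4, a sialidase that removes sialic acid from glycoproteins and glycolipids (chr1:94020451-94028334, plus strand), had 148, 170 and 188 in Input and 69.9, 67.2 and 56.1 in Positive. Its log2 fold change of -1.39 ± 0.18 (SE, edgeR, adjusted p = 5.2e-05) left 38.2% of Input. Enpp6, a choline phosphodiesterase switched on for a short time in differentiating cells (chr8:46986887-47096762, plus strand), had 90.8, 52.6 and 56.6 in Input and 18.5, 18.6 and 24.9 in Positive, all under 100 in every library. The groups did not overlap in any of these genes. For Enpp6 the log2 fold change was -1.68 ± 0.30 (SE, edgeR, adjusted p = 0.00052), and its 95% interval of 19.9% to 48.6% of Input was the widest of the 9 relative to its value. Enpp6 passed the minimum of over 20 scaled reads only through its Input libraries. The filter thus favoured a fall, and its p-value is no independent support.

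Tnr encodes tenascin-R, an extracellular matrix glycoprotein made by cells of the oligodendrocyte lineage and by some neurons, and a part of the perineuronal nets around interneurons (chr1:159523769-159931729, plus strand). Its scaled reads were 2042, 1851 and 2181 in Input and 1604, 1950 and 2267 in Positive. The groups overlapped, the lowest library being the Positive library of animal 201 and the highest the Positive library of animal 208. The log2 fold change was -0.06 ± 0.11 (SE, edgeR, adjusted p = 0.68), with a 95% interval of -0.31 to 0.18, or 80.8% to 114% of Input. Without the Positive library of animal 201 it was 0.06, and without that of animal 208 it was -0.19, and neither passed the test. Tnr made up 25.2% to 27.0% of the scaled reads of the 9 genes in Input and 45.7%, 53.7% and 63.7% in Positive of animals 201, 207 and 208. These shares are of reads and depend on the length of the genes.

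The distance of Tnr from the other members was seen within each animal. The log2 ratio of Positive over Input, taken per animal, was lower than that of Tnr in every animal for all 8 others. The mean difference ranged from -1.04 ± 0.52 (SD, n = 3) for Cspg4 to -1.99 ± 0.44 (SD, n = 3) for Olig1. With 3 animals the smallest exact two-sided sign-flip p is 0.25, so these differences are given with their spread and no test. Among all genes tested, ordered from the lowest log2 fold change up, Olig1 stood at 0.534% of the way, Sox10 at 0.593%, Bcas1 at 0.652%, Olig2 at 0.75%, Enpp6 at 1.15%, Pdgfra at 1.17%, Neu4 at 1.94%, Cspg4 at 3.79% and Tnr at 45.3%.

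The 8 genes that fell did not fall by equal amounts in each animal. The log2 ratio of Pdgfra was -1.35, -1.58 and -2.15 in animals 201, 207 and 208, that of Cspg4 was -0.82, -1.11 and -1.42, and that of Olig1 was -1.86, -2.02 and -2.32. For 7 of the 9 members the ratio was lowest in animal 208, as it was for 40.4% of all genes tested. Enpp6 ran the other way, with log2 ratios of -2.23, -1.45 and -1.15, and Tnr was also lowest in animal 201, at -0.35 against 0.07 and 0.06. Of the 36 pairs of members, 22 kept the same direction of difference in all 3 animals, among them the 8 pairs with Tnr. Pairs of other genes were not counted, so no share over all genes stands beside this count. The log2 ratio of Cspg4 was higher than that of Olig1 by 0.95 ± 0.08 (SD, n = 3), of Sox10 by 0.87 ± 0.16 and of Olig2 by 0.77 ± 0.14, while Olig1 and Olig2 differed by only -0.18 ± 0.06.

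**Figure D2:**
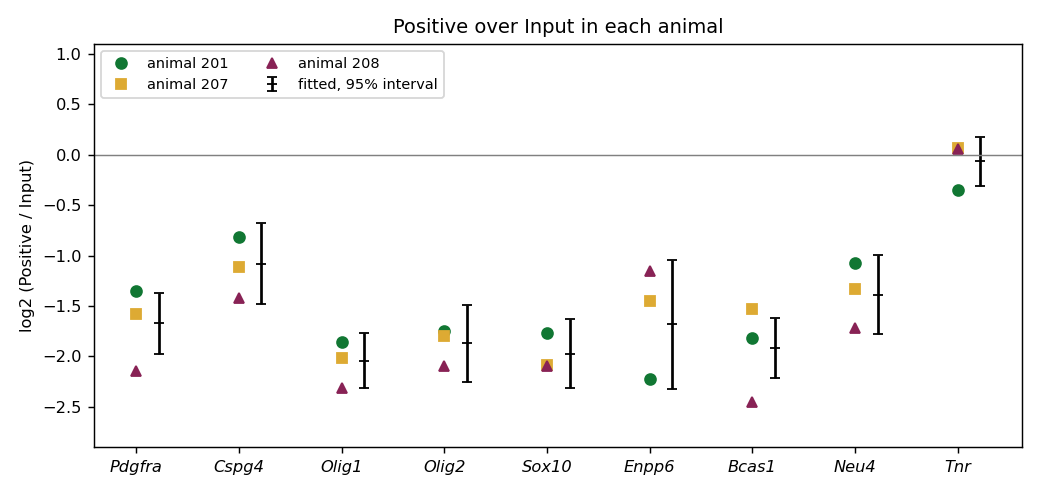
Log2 ratio of Positive over Input scaled reads for the 9 genes, with 1 point for each of the 3 animals, the fitted log2 fold change with its 95% interval (edgeR) beside them, and a line at 0 for equal levels. All points of 8 genes lie below 0, 7 of the 9 genes are lowest in animal 208, and Tnr lies between -0.35 and 0.07.

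Levels were compared between genes only as scaled reads per kilobase of exon (GENCODE M21 gene models). In Input, Olig1 was the highest member at 861 (range over 3 libraries 824 to 917), followed by Bcas1 at 389 (356 to 444). Sox10 at 180, Olig2 at 175 and Tnr at 157 had ranges that overlapped and could not be ordered. Pdgfra stood below them at 82.9 (80.0 to 88.7). Neu4 at 36.3 and Cspg4 at 32.3 overlapped each other, and Enpp6 was the lowest at 10.4 (8.21 to 14.2). In Positive, Olig1 at 208 (164 to 252) and Tnr at 151 (125 to 176) overlapped, and Bcas1 came next at 103 (81.1 to 123). Olig2 at 47.9 and Sox10 at 45.7 per kilobase followed and overlapped each other. Pdgfra at 26.0 (19.9 to 31.4) overlapped Cspg4 at 15.3 (10.8 to 20.02), which overlapped Neu4 at 13.9 (12.1 to 15.1), and Enpp6 was the lowest at 3.23. Tnr moved from among the transcription factors in Input to a level that overlapped only that of Olig1 in Positive.

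**Figure D3:**
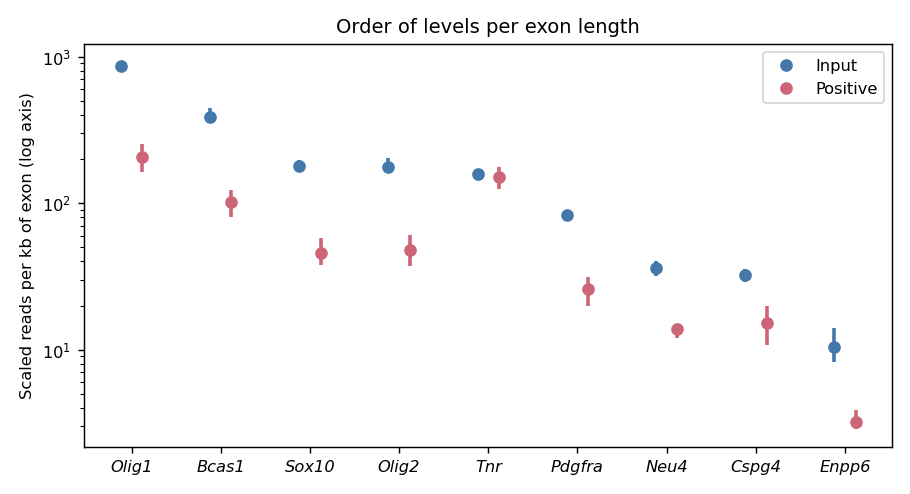
Scaled reads per kilobase of exon (log axis) for the 9 genes, ordered by their Input level, with points at the mean of the 3 Input (blue) or 3 Positive (red) libraries and bars over the range of the 3. Olig1 is the highest in Input at a mean of 861, and in Positive its range overlaps that of Tnr.

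Other genes known from precursors were low in the Positive fraction too. Of 20 such genes, 17 fell and 1 rose, with a median log2 fold change of -0.91, and in 17 of them all Positive libraries lay below all Input libraries. Among the 17 were Nkx2-2, Emid1 and Susd5, named for their low reads, with Positive means of 14.2, 21.1 and 23.5 scaled reads. Like Enpp6, they passed the minimum of over 20 scaled reads only through Input. The filter thus favoured their fall, and their calls are no independent support. Ptprz1, a receptor-type phosphatase of precursors and astrocytes, had a log2 fold change of -1.11 ± 0.12 (SE, edgeR, adjusted p = 6.7e-06). Xylt1, a xylosyltransferase that starts proteoglycan sugar chains, fell less, by 0.40 on the log2 scale. Luzp2, at -0.12, and Sulf2, a heparan sulfatase at -0.10, did not pass the test. Tmem100, a membrane protein also known from endothelium, rose by 0.60 ± 0.18 (log2, SE, edgeR, adjusted p = 0.016). That call was lost without the Input library of animal 201 or the Positive library of animal 207, with an adjusted p of up to 0.094 (edgeR).

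Genes of committed precursors and newly formed oligodendrocytes were mixed. Of 12, 4 fell and 2 rose, with a median log2 fold change of -0.14, or -0.23 without animal 208. The 4 that fell, named after their values were seen, were the receptor Gpr17 at a log2 fold change of -2.01 and the transcription factors Nkx6-2 at -2.74, Myrf at -1.37 and Zfp488 at -1.32. Itpr2, an intracellular calcium channel, rose by 1.43 ± 0.11 (log2, SE, edgeR, adjusted p = 3e-07). Mycl, a MYC family factor, had a log2 fold change of 0.34 and an adjusted p of 0.047 (edgeR), and its call was lost under 9 of 14 alternatives, with an adjusted p of up to 0.18. Fyn, a kinase, and Sirt2, a deacetylase, did not pass, at -0.13 and 0.10.

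Myelin genes had a lower median than the other precursor genes. Some members, such as Sox10, stay on in mature oligodendrocytes, so the members and the myelin genes are not separate stages. Of 20, 19 fell and 1 rose, with a median log2 fold change of -2.33. Genes of myelin proteins were among them, with log2 fold changes of -1.74 for Mbp, -1.74 for Cnp and -1.61 for Mobp. These were named for their high reads and fell less than the median of the list, whose lowest gene was at -3.10. Trf, the iron carrier transferrin, rose from 828 to 982 scaled reads in Input to 1860 to 3075 in Positive, a log2 fold change of 1.43 ± 0.15 (SE, edgeR, adjusted p = 5.8e-06).

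**Figure D4:**
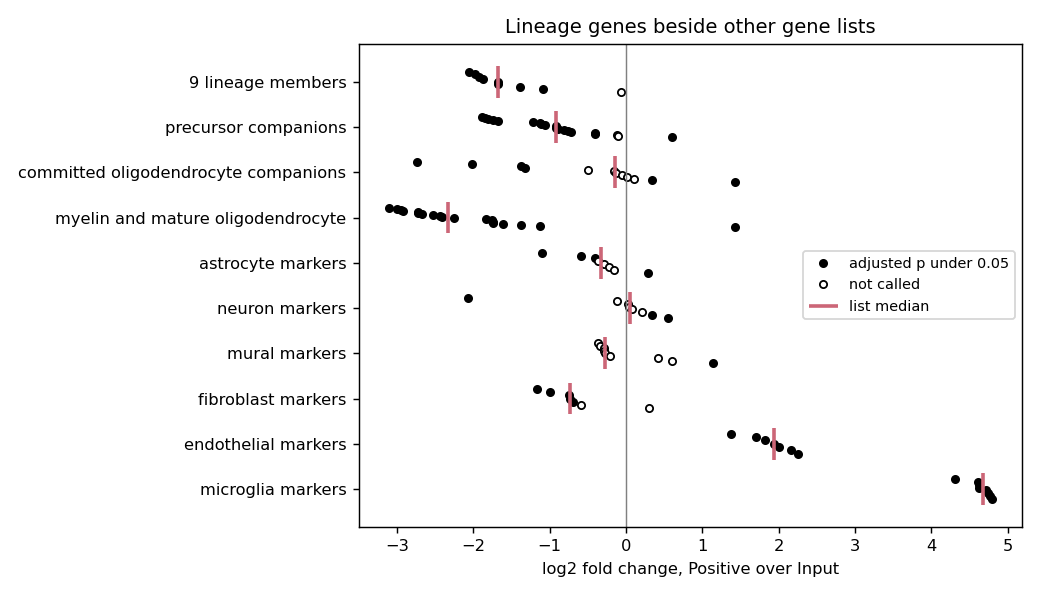
Log2 fold change of Positive over Input for each gene of the 9 members and of 9 other lists, filled where the adjusted p was under 0.05 (edgeR) and open where it was not, with a red bar at the median of each list. The members have a median of -1.68, the myelin genes lie lowest at a median of -2.33, and the microglia markers lie highest at 4.68.

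Transcription factors that act with or against Olig1, Olig2 and Sox10 were divided. Of 19 tested, 12 fell and 2 rose, with a median log2 fold change of -0.69. Nkx2-2, among the 12, passed the read minimum only through Input, so the filter favoured its fall. The dimer partners of the Olig factors, which most cells use, included Tcf4 at -0.02 and Tcf12 at 0.15, neither of which passed, and Tcf3, which rose by 0.37 on the log2 scale. Of the inhibitors that bind those partners, Id4 fell, at -0.79, and Id2 did not pass, at -0.11. Sox4, a factor of immature cells in many tissues, rose by 0.84 ± 0.14 (log2, SE, edgeR, adjusted p = 0.00027). Sox8 and Sox9, the nearest relatives of Sox10 and named here for that, both fell, by 0.72 and 0.69 on the log2 scale.

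Among the ligands and relatives of Pdgfra, 2 of 5 tested fell and 1 rose, with a median log2 fold change of -0.35. That median rests on single libraries, at -0.68 without Positive of animal 201, where 3 fell, -0.09 without Positive of animal 208 and -0.03 without both libraries of animal 208. Pdgfa, the main ligand for precursors, had 1001 to 1250 scaled reads in Input and 611 to 703 in Positive, a log2 fold change of -0.75 ± 0.10 (SE, edgeR, adjusted p = 5.9e-05). Pdgfc, another ligand of the receptor, stood at -0.95 ± 0.23 (log2, SE, edgeR, adjusted p = 0.0049), which without animal 208 no longer passed (adjusted p = 0.055). Pdgfb, a ligand known from endothelium and macrophages, rose, from 515 to 560 scaled reads in Input to 995 to 1146 in Positive (log2 fold change 0.99 ± 0.09, SE, edgeR, adjusted p = 1.7e-06). Pdgfrb, the receptor of pericytes, was at -0.29 and did not pass.

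Of 9 matrix and surface partners of tenascin-R, 4 fell and 0 rose, with a median log2 fold change of -0.30. The 4 were Ptprz1 at -1.11, the proteoglycans Vcan at -1.22 and Acan at -0.86, and Ncan at -0.28. Vcan and Acan were named after their values were seen. The calls of Acan and Ncan were lost without Input of animal 208, which left 2. Without Positive of animal 201 the median was -0.49. With the animal as a block, or with scaling by total count, 6 fell. Cntn1, a neuronal adhesion molecule that binds tenascin-R, stood at -0.21 (edgeR, adjusted p = 0.056) and Bcan at -0.30 (adjusted p = 0.089).

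Relatives of the members by protein family did not move as one. Of 13 tested, 5 fell and 1 rose, with a median log2 fold change of -0.34. Csf1r, of the same receptor family as Pdgfra, rose by 4.63 on the log2 scale and is itself a microglia marker. Enpp2 (autotaxin), made by oligodendrocytes and choroid plexus, fell from 13358 to 18126 scaled reads in Input to 3797 to 5709 in Positive, a log2 fold change of -1.86 ± 0.16 (SE, edgeR, adjusted p = 8.2e-07), whereas Enpp5 was at 0.10 and did not pass. Kit, at -0.20, did not pass either. The other genes that fell were Sox8, Sox9, Enpp4 and Flt3, and the calls of the last 2 were lost in 4 of 14 alternatives each, with an adjusted p of up to 0.19 for Enpp4 and 0.072 for Flt3 (edgeR). Without Input of animal 208, or Positive of animal 207, 3 relatives fell.

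Several members are also used by other cell types, and the markers of those types were read beside them. For Cspg4 the other source is mural cells of vessels. Of 9 mural markers, 0 fell and 1 rose, with a median log2 fold change of -0.28 and summed scaled reads of 2828 to 2965 in Input and 1912 to 3777 in Positive. The marker that rose was Myh11 of smooth muscle, and it no longer passed without Input of animal 201 or Positive of animal 207 (edgeR, adjusted p up to 0.09). Without Positive of animal 208, 3 mural markers rose and the median was -0.02. Without Positive of animal 201, 2 fell (Pdgfrb and Vtn), and without Positive of animal 207, 1 fell (Tagln). The median log2 ratio of the mural markers was 0.18, 0.27 and -0.85 in animals 201, 207 and 208. The ratio of Cspg4 was also lowest in animal 208, but this held for 7 of the 9 members and for 40.4% of all genes tested. For Pdgfra the other source is fibroblasts, of which 5 of 7 markers fell, with a median log2 fold change of -0.73 and sums of 3211 to 3636 in Input and 1492 to 2322 in Positive. The 5 were Igf2, Dcn, Col1a1, Col1a2 and Slc6a13, and 3 fell without Input of animal 207. Of 7 endothelial markers all 7 rose, with a median log2 fold change of 1.94, and their sums went from 1435 to 1840 up to 3997 to 7931. What part these cells had in the levels of Cspg4, Pdgfra and Pdgfb was not tested.

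Of 8 astrocyte markers, 3 fell and 1 rose, with a median log2 fold change of -0.33, and 5 fell with the animal as a block and 6 with scaling by total count. Gfap, Gja1 and Gjb6 fell, and the call of Gfap was lost in 5 of 14 alternatives, among them without any 1 of the Input libraries (adjusted p up to 0.069). Slc1a2, a glutamate transporter, rose by 0.29 on the log2 scale, a call lost in 7 of 14 alternatives (adjusted p up to 0.15). Without Positive of animal 201, 7 astrocyte markers fell, and without Positive of animal 208 the median was -0.15. Their sum was 60539 to 64803 in Input and 57951 to 69448 in Positive, so it overlapped. In 4 of the 8 astrocyte markers all Positive libraries lay below all Input libraries, as in 27.6% of all genes tested. What part astrocytes had in the level of Olig2, which some of them use, was not tested. Of 8 neuron markers, 1 fell and 2 rose, with a median log2 fold change of 0.06, which was -0.02 with scaling by total count and -0.04 without Positive of animal 208, and overlapping sums of 79730 to 90657 in Input and 86010 to 101694 in Positive. The marker that fell was Pvalb, of the interneurons that carry most perineuronal nets, at -2.07 ± 0.20 (log2, SE, edgeR, adjusted p = 2.5e-06). The interneuron genes Gad1 and Gad2 rose, by 0.34 and 0.55 on the log2 scale, and Sst, at -0.11, did not pass. The neuron markers with the most reads did not pass either, Snap25 at 0.21, Slc17a7 at 0.03, Syt1 at 0.04 and Rbfox3 at 0.08. No marker in these lists was at 0, and their part in the level of Tnr was not tested.

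The genes most like the mean profile of the 9 members over the 6 libraries, by Euclidean distance of centred log2 scaled reads among 12114 genes, were Dock5 (distance 0.138), Erbb3 (0.149), Tmem181b-ps (0.214), Gm13340 (0.224), Il33 (0.238) and Galnt6 (0.244). Their log2 fold changes ran from -1.62 to -1.38. Tmem181b-ps and Gm13340 are pseudogenes whose reads may be shared with the genes they copy, and their values are uncertain. Of the members, Pdgfra lay nearest to that mean, at 0.352, and Tnr farthest, at 1.88. The mean includes Tnr, whose near-equal levels move it toward a smaller fall. No member lay as near to it as the 6 named genes did.

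No gene of the table overlapped a member. The nearest neighbours of Pdgfra, Enpp6, Bcas1, Tnr and Neu4 did not pass the test. Polr2f, a subunit of RNA polymerases 3139 bases from Sox10 on the opposite strand, was at a log2 fold change of -0.28 (edgeR, adjusted p = 0.027), against -1.98 for Sox10. Snx33, a sorting nexin 17323 bases from Cspg4 on the opposite strand, was at -0.72 (adjusted p = 0.034).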

How the data were processed

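RNA was measured in 3 Input and 3 Positive hippocampal libraries, 1 of each from animals 201, 207 and 208, grouped by the fraction given per the labels. Libraries were directional, poly(A)-selected and paired-end. The authors aligned reads to mm10 and counted them with strand in Strand NGS. The deposited raw columns hold expected counts (estimated counts, not all whole), for 15388 genes that reached 20 reads in all 3 libraries of Input or of Positive. The deposited normalized columns are log2 values after DESeq scaling, relative to the Input median. Whether the mates of a read pair were counted separately is not given in the sources used here.

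After rounding of the expected counts, fractions were compared by edgeR 4.0.16 (quasi-likelihood F test, RLE scaling, R 4.3.3), with no pairing term because the study's own test had none. A gene was kept if all 3 libraries of a fraction had over 20 scaled reads (15343 kept, 45 removed), and Benjamini-Hochberg adjustment was made across all genes kept. Ratios per animal used a pseudocount of 1. Same-numbered libraries come from the same animal, which pairs them. Deviations from the group means of the same animal correlated at 0.193, 0.0585 and 0.12. On simulated data, in 5 runs with 200 changed genes each, 99.8% of changed genes were called. Those changes had fixed sizes far larger than the fitted change of Tnr, in genes above a minimum mean. All genes shared a common dispersion, so the share covers only such changes. What share of real changes of each size the test calls was not tested. The animals are the replicates, and reads carry no molecular identifiers. Values marked SD are spreads between animals. Values marked SE, and the 95% intervals, come from the unpaired edgeR fit, whose dispersion draws on other genes too.

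Alternatives were TMM and total count scaling, no filter, a mean of at least 100 scaled reads, DESeq2 1.42.0, limma 3.58.1 on the deposited log2 values, the animal as a block, and leaving out each library or animal 208. The members and all gene lists were chosen with earlier results of these data known. Beside the members, the genes named were up to 4 per list by mean scaled reads, genes past the test against the median of their list, and the 6 nearest in profile. A gene that this rule took is not reported here. Where 5 or fewer genes of a list passed, they are named, and those outside this rule were chosen after their values were seen. Sequences were matched by symbol in RefSeq for 6 of the 9 members.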

Additional observations from a re-analysis of the deposited data

How the results depend on the processing

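Of the 9 members, 8 fell under every alternative except the filter at a mean of 100 scaled reads, where 7 fell and Enpp6 was not tested. Leaving out 1 library at a time, the log2 fold change ranged from -1.83 to -1.51 for Pdgfra, from -1.32 to -0.88 for Cspg4, from -2.21 to -1.91 for Olig1, from -1.83 to -1.40 for Enpp6 and from -0.19 to 0.06 for Tnr. Without both libraries of animal 208 it was -1.46 for Pdgfra and -1.93 for Enpp6. Tnr did not pass under any alternative, and it turned sign only without the Positive library of animal 201, at 0.06. The cause was not tested. With the animal as a replicate block, 8 members fell, Tnr was at -0.07, and 7570 genes differed in place of 7051. The block changed the call of no member. Scaling by total count moved the median log2 fold change of all genes from -0.01 to -0.09 and the share of calls that were lower from 47.9% to 58.4%, and Tnr was then at -0.14 with an adjusted p of 0.32 (edgeR). Other alternatives gave 5539 to 7319 genes that differed. In the other lists 86 of 128 genes differed, of which 14 lost the call and 0 changed sign under some alternative. Of the genes in these lists that did not pass, 15 gained a call under some alternative. Low reads limit Enpp6 most, and it passed the read minimum only through Input.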
